A study of Gallus gallus with 12 samples.

Results

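The genes described here are 28 of the 30108 genes in a table of interdigital tissue from the chicken hindlimb. Their level differed between replicate numbers of the study while staying close between the Noggin bead and the control bead of the same number. A total of 12 libraries were sequenced from interdigital region 3 (ID3). In 6 of them the tissue had held a bead soaked in Noggin, and in the other 6 a bead soaked in phosphate-buffered saline (PBS), the control. Per the labels' protocols, surgery was done at stage 30 of the Hamburger-Hamilton series, and ID3 was dissected after 12 h. Both groups carried the same bead surgery and differed in what the bead had been soaked in. No genetic alteration, strain or sex is named in the labels.

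Interdigital tissue is the soft tissue between the forming digits, and most of it is removed by programmed cell death as the digits separate. Bone morphogenetic proteins (BMPs) promote that death, and Noggin is a secreted protein that binds BMPs and keeps them from their receptors. Where the control bead sits in the opposite limb of the treated embryo, both limbs share that embryo's genotype, sex and age. The labels number the libraries 1 to 6 in each group and set the beads in opposite limbs, but they do not say that a number is an embryo. The word embryo is therefore not used below for a number.

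Members were chosen on the scale log2(CPM + 1), where CPM is the number of reads of a gene per 1000000 reads of the library. A member had a mean of at least 10 CPM and differed by at most 0.5 between the Noggin and the PBS library of every number. Its 6 number means, each the mean of the Noggin and PBS library of that number, spanned at least 1 between the lowest and the highest number. Genes in which the 4 libraries numbered 2 and 6 all lay above or all below the other 8 were left out. All values of the 12 libraries entered this choice. The levels, the range between numbers and the size of the bead difference are therefore descriptions and carry no test.

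The table gives Ensembl chicken gene identifiers and no symbols, and 0 of them could be looked up in the reference table used here, which holds no Ensembl identifiers. No member is named by symbol, position or function. The labelled tissue could not be checked against marker genes for the same reason, and lists of marker and pathway genes could not be applied. In bulk tissue, fewer cells that express a gene and less RNA per cell cannot be told apart.

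Libraries held 1624309 to 3513398 reads, with 1946971 to 3513398 in the Noggin group and 1624309 to 2767417 in the PBS group. A single read was worth 0.285 to 0.616 CPM, and a count of 0 allows up to 0.854 to 1.85 CPM (3 reads, for counting error only). The 2 libraries numbered 6 go against the bead groups of the other numbers. By limma, 13 of 10574 genes differed between the beads as labelled, 530 when the library labelled Noggin 6 was left out, 669 when the library labelled PBS 6 was left out, and 1130 without both. Whether their labels were exchanged was not tested. An exchange of the 2 labels would leave the members as they are, because the rule uses the size of the difference within a number and the mean of its libraries. Results that rest on the bead are given with and without number 6.

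Few genes met both conditions. Of the 30108 genes, 8374 averaged 10 CPM or more, and in 2804 of these (33.5%) all 6 within-number differences were at most 0.5. The range of number means over these 2804 genes had a median of 0.35, a 95th percentile of 0.82 and a 99th percentile of 1.12. A range of at least 1 was reached by 51 of them. In 23 of the 51 the libraries numbered 2 and 6 lay apart from the other 8, low in 21 genes and high in 2, and these were left out. The remaining 28 genes are 0.999% of the 2804.

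**Figure D1:**
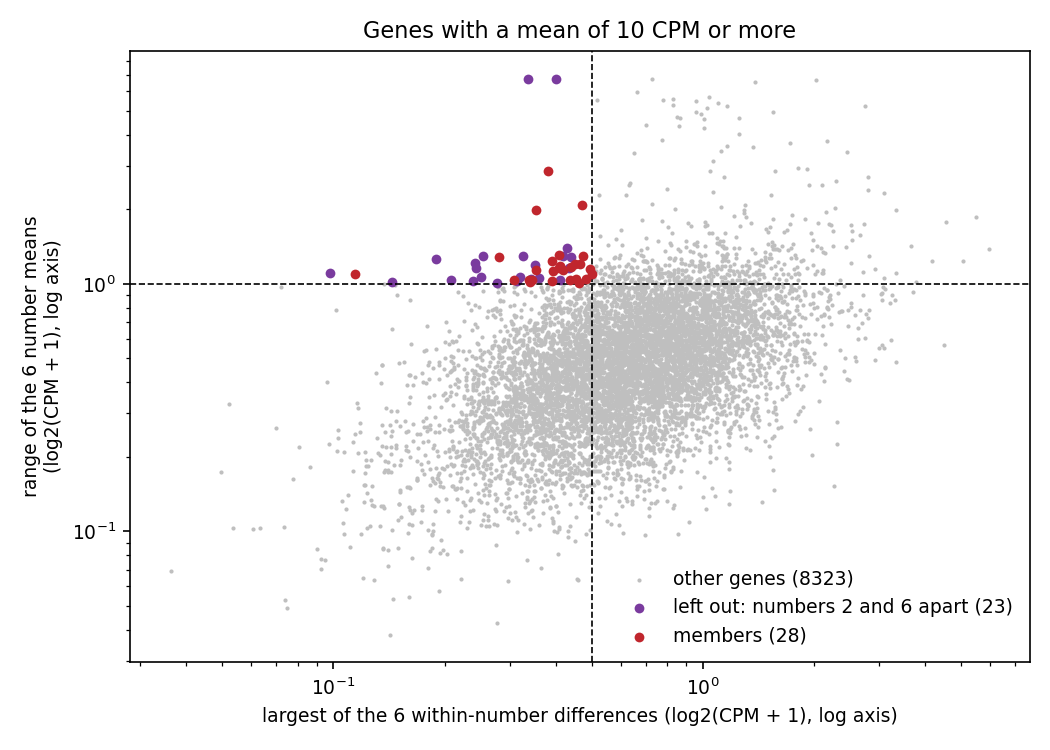
Points are the genes that averaged 10 CPM or more. The horizontal axis gives its largest difference between the Noggin and the PBS library of a number and the vertical axis the range of its 6 number means, both on the log2(CPM + 1) scale with log axes; dashed lines mark 0.5 and 1. The 28 members (red) sit in the upper left area, most of them just above the line at 1 and 3 of them above 1.5.

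Most members lay close to the limits. Their range had a median of 1.15 and ran from 1.01 to 2.85. Of the 28 members, 8 exceeded 1.2, 3 exceeded 1.5 and 2 exceeded 2. The 3 members just inside the range limit spanned 1.01, 1.02 and 1.03, and the 3 genes just outside it spanned 0.99, 0.98 and 0.97. For the within-number limit, the largest differences of the members were 0.50, 0.50 and 0.48, and the 3 nearest genes beyond it reached 0.51 each. For the level, the 3 members lowest in CPM had means of 10.1, 10.4 and 10.6, and the 3 nearest genes under the limit had 9.85, 9.82 and 8.66. The values on the 2 sides of each limit are close, so membership near a limit separates very similar genes.

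The widest range belonged to ENSGALG00010007160, which was low in number 1 alone. In number 1 its level was 2.73 CPM (Noggin) and 3.25 CPM (PBS), from 7 and 9 reads. In the same order of beads it stood at 27.9 and 27.3 CPM in number 2, 21.3 and 20.9 in number 3, 13.3 and 17.6 in number 4, 25.5 and 30.0 in number 5, and 18.5 and 20.3 in number 6. The 2 libraries of number 1 thus lay far below all of the others, and no other library came within 10 CPM of them. The 10 libraries of numbers 2 to 6 averaged 22.3 ± 5.3 CPM (SD), 7.45-fold above the 2.99 ± 0.37 CPM of the 2 libraries of number 1. The rule bounded the difference between these 2 libraries, so their SD does not show the counting error of 7 and 9 reads. The bead groups were close, as the rule requires: the 6 Noggin libraries averaged 18.2 ± 9.18 CPM (SD) and the 6 PBS libraries 19.9 ± 9.4 CPM.

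ENSGALG00010007287 was the most abundant member by CPM and was low in numbers 1 and 6. Its levels with Noggin and PBS were 44.4 and 54.6 CPM in number 1 and 49.8 and 42.3 CPM in number 6. They were 142.3 and 171.7 CPM in number 2, 178.3 and 219.2 in number 3, 159.9 and 182.5 in number 4, and 144.4 and 200.4 in number 5. The 4 low libraries, between 42.3 and 54.6 CPM, and the 8 high ones, between 142.3 and 219.2 CPM, did not overlap, and the gap between the number means took up 79.1% of the whole range. Mean levels were 174.8 ± 26.5 CPM in the high set and 47.8 ± 5.53 CPM in the low set (SD), a 3.66-fold difference. The differences between beads were smaller but had a common sign in numbers 1 to 5, where PBS was the higher library each time. In number 6 the library labelled Noggin was the higher. The group means were 119.8 ± 57.8 CPM for Noggin against 145.1 ± 76.7 CPM for PBS (SD, 6 libraries in each group).

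ENSGALG00010000038 was graded over the numbers rather than split into a high and a low set. In the order Noggin, PBS it stood at 46.3 and 48.4 CPM in number 1, 18.8 and 23.4 in number 2, 45.1 and 57.9 in number 3, 32.3 and 34.1 in number 4, 13.2 and 11.1 in number 5, and 33.9 and 29.3 in number 6. Number 5 was lowest and number 2 next, numbers 4 and 6 lay between, and numbers 1 and 3 were highest. Its largest gap was 37.4% of its range of 1.99. Neighbours in this order overlapped: both libraries of number 6 lay within 5 CPM of those of number 4. The Noggin group averaged 31.6 ± 13.5 CPM and the PBS group 34.0 ± 16.9 CPM (SD over 6 libraries).

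These 3 genes were the only members with a range above 1.5. The other 25 spanned 1.01 to 1.31 on the log2 scale, which is 2.06- to 2.72-fold between the extreme numbers when the CPM of both libraries are averaged.

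**Figure D2:**
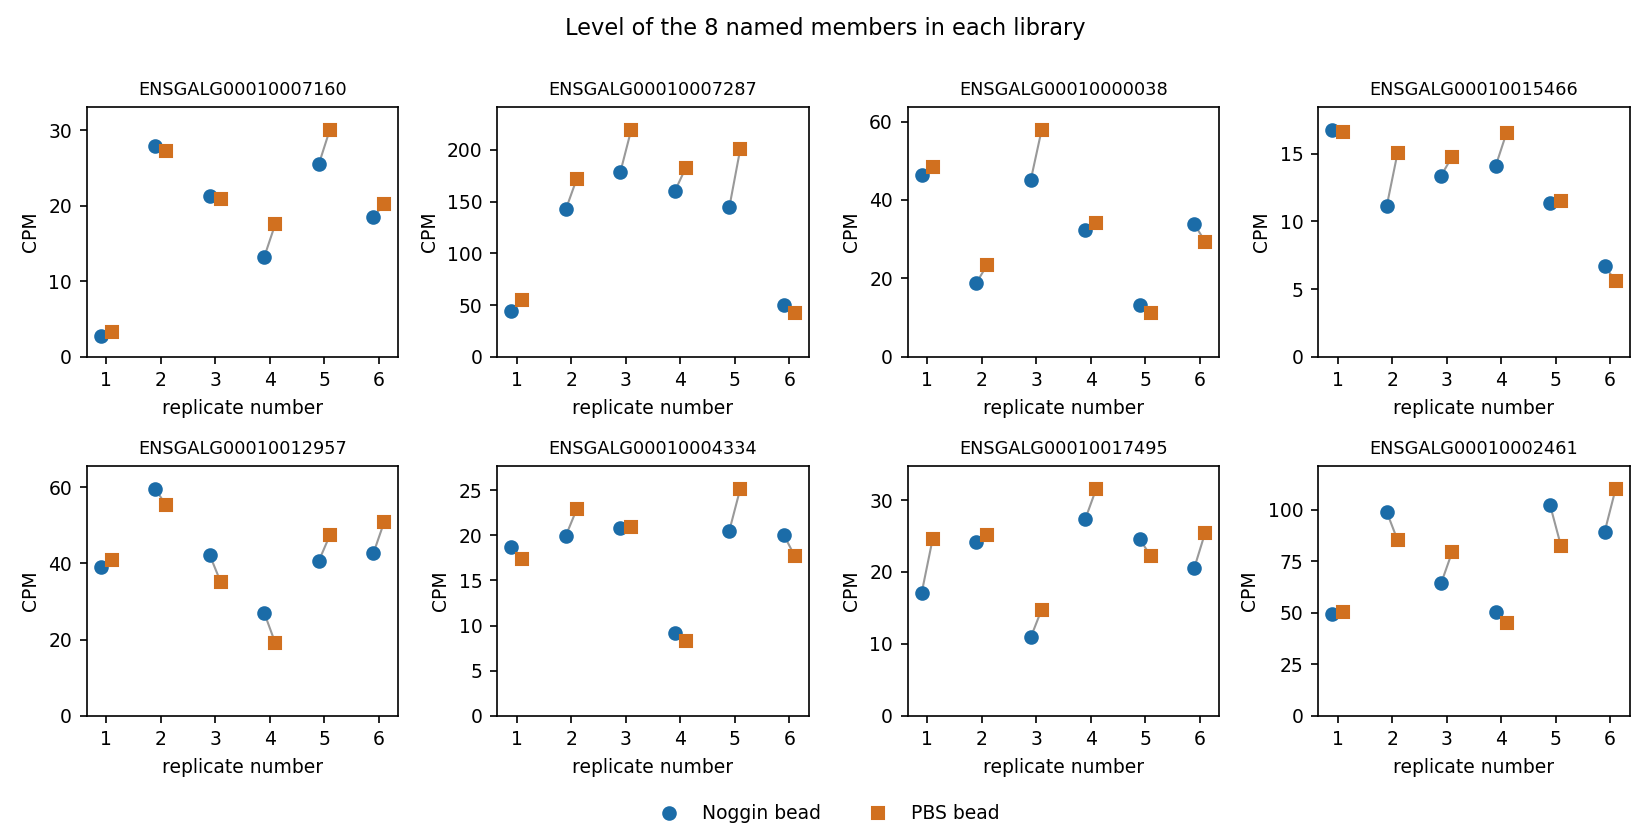
Level in CPM (linear axes from 0) of the 8 members named by rule, by replicate number; circles are libraries with a Noggin bead, squares libraries with a PBS bead, and a line joins the libraries of a number. ENSGALG00010007160 drops to 2.73 and 3.25 CPM in number 1, ENSGALG00010007287 is at 42.3 to 54.6 CPM in numbers 1 and 6, and ENSGALG00010004334 drops to 9.11 and 8.27 CPM in number 4.

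When each member was divided at the largest gap between its 6 number means, the commonest pattern was a single low number. In 17 members 1 number lay alone below the other 5, and in 6 members 1 number lay alone above. Of the remaining 5 members, 3 had 4 high numbers and 2 low ones, and 2 had 3 of each. Across this division the libraries did not overlap in 26 of the 28 members. The rule asks for close libraries within a number and a wide range between numbers, so nothing is read from that count. The gap took 22.6% to 79.1% of the range, with a median of 49.1%, and exceeded 50% in 13 members. In the others it took 50% or less, which does not by itself tell a graded member from one with a high and a low set.

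By the largest gap, number 5 alone was low in 4 members, led by ENSGALG00010000038. The other 3 were ENSGALG00010002633, ENSGALG00010002185 and ENSGALG00010010719, singled out after their values were seen because all 3 pairs among them had like profiles over the numbers. ENSGALG00010002633 was at 20.2 CPM (Noggin) and 26.7 CPM (PBS) in number 5, against 38.1 to 60.0 CPM in the other 10 libraries. ENSGALG00010002185 stood at 10.4 and 7.41 CPM there, against 11.6 to 23.3 CPM elsewhere. ENSGALG00010010719 stood at 6.3 and 8.23 CPM, against 10.04 to 17.8 CPM elsewhere. In all 3, number 5 was the lowest in both beads with no overlap. A 2-means division, which keeps the spread within the 2 sets smallest, put number 1 with number 5 in ENSGALG00010002185. In ENSGALG00010000038 it put number 2 with number 5. Over the 6 number means, Pearson's r was 0.98 between ENSGALG00010002633 and ENSGALG00010010719, 0.97 between ENSGALG00010002185 and ENSGALG00010010719, and 0.94 between ENSGALG00010002633 and ENSGALG00010002185. These values rest on 6 points from the same libraries, are favoured by the low number 5 that the 3 genes share, and are a description. Of the 378 pairs of members, 4 had r above 0.9 and 1 had r below -0.9. Pairs of other genes were not counted in this way, so nothing is read from these counts or from the pairs with high r.

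Number 4 alone was low in 3 members. ENSGALG00010004334 was at 9.11 CPM (Noggin) and 8.27 CPM (PBS) in number 4, and at 17.3 to 25.1 CPM in the other 10 libraries, a 2.35-fold difference of means. Those 10 libraries were close to each other, at 20.4 ± 2.32 CPM (SD), so that number 4 was the sole departure. ENSGALG00010012957 stood at 26.9 and 19.1 CPM in number 4, against 35.1 to 59.5 CPM elsewhere, with both libraries of number 2 the highest at 59.5 and 55.2 CPM. The opposite pattern, number 4 alone high, was found in 2 members. The clearer of them, ENSGALG00010028199, again singled out after its values were seen, reached 37.3 and 38.2 CPM in number 4 against 16.3 to 23.3 CPM in the other libraries. Its r with ENSGALG00010004334 over the number means was -0.90, which the departure of number 4 in both genes favours.

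Number 3 alone was low in 4 members, with ranges of 1.01 to 1.18. The widest gap among them was that of ENSGALG00010017495, at 10.9 CPM (Noggin) and 14.8 CPM (PBS) in number 3 against 17.1 to 31.5 CPM elsewhere. Its largest within-number difference, in number 1 (17.1 and 24.6 CPM), was 0.50, at the limit. The distance between the high and the low libraries was 0.20 on the log2 scale, less than that difference, so the separation of number 3 is small beside the spread between the libraries of a number.

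Number 6 alone was low in 2 members, whose profiles over the number means had r = 0.97, which the low number they share favours. ENSGALG00010015466 was at 6.68 CPM (Noggin) and 5.61 CPM (PBS) in number 6, against 11.1 to 16.7 CPM in the other 10 libraries. The second, ENSGALG00010020324, stood at 8.22 and 6.47 CPM in number 6, against 10.1 to 17.9 CPM elsewhere. Both libraries of number 6 were low whatever bead they were labelled with. Number 2 alone was low in 3 members, with ranges of 1.03 to 1.202. A member low in 2 numbers, ENSGALG00010002461, was the second in abundance by CPM. It stood at 49.5 and 50.6 CPM in number 1 and at 50.5 and 45.0 CPM in number 4, and at 64.4 to 110.05 CPM in the other 8 libraries. Its 6 Noggin libraries averaged 75.8 ± 24 CPM (SD) and its 6 PBS libraries 75.4 ± 24.1 CPM.

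**Figure D3:**
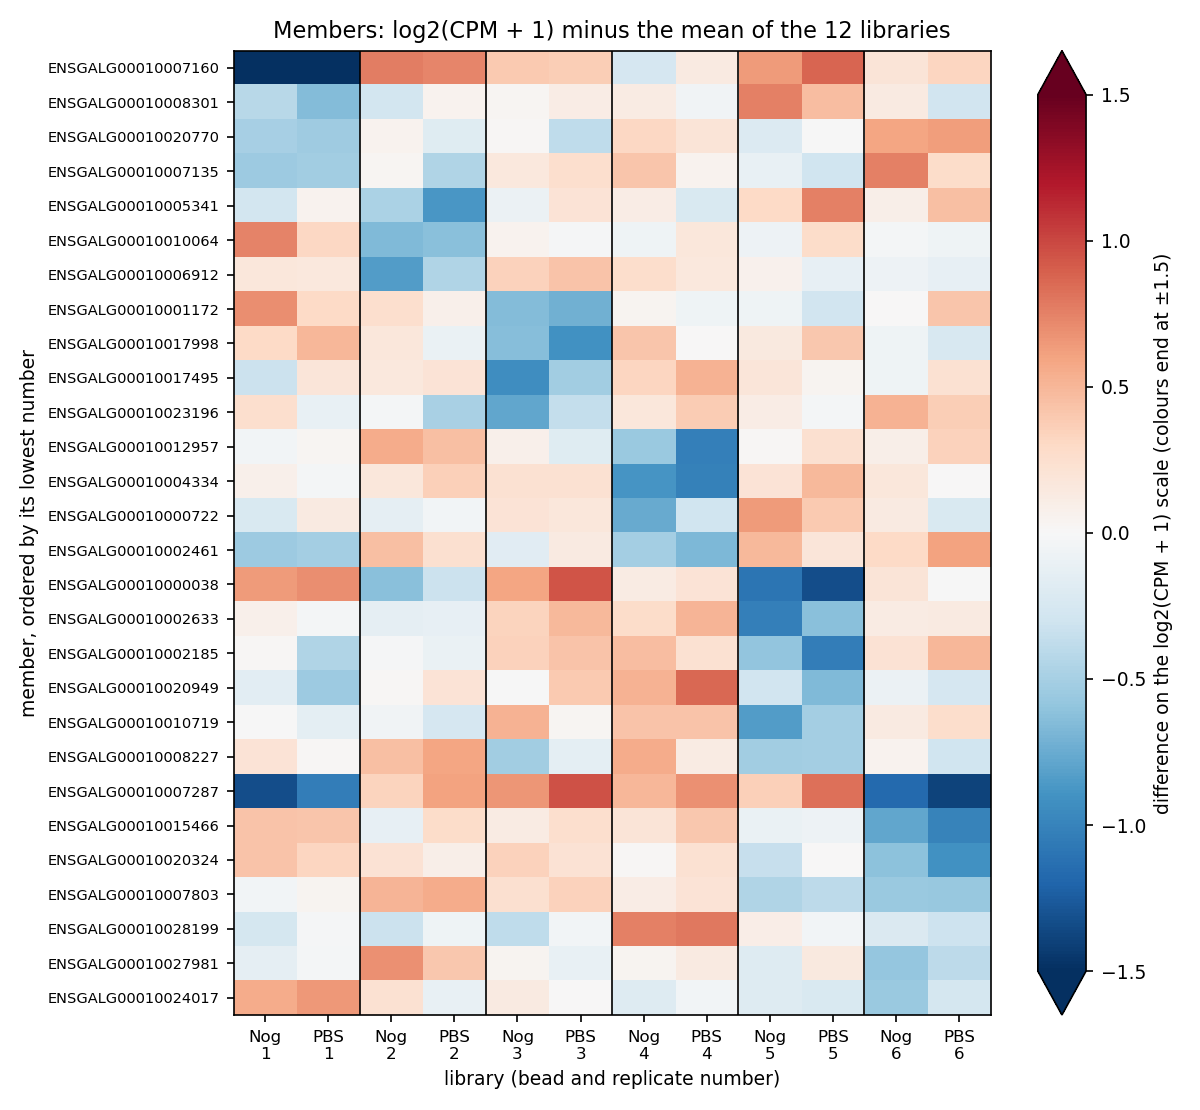
Level of the 28 members in the 12 libraries as the log2(CPM + 1) value minus the member's mean over all libraries (colour; the scale ends at ±1.5, which number 1 of ENSGALG00010007160 exceeds), with members in rows and libraries in columns, grouped by replicate number. Within a number the Noggin and PBS columns have like colours, as the rule requires, while the number that stands out changes from member to member.

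No number supplied most of the members. The lowest number mean was that of number 6 in 7 members, number 5 in 6, numbers 1, 3 and 4 in 4 each and number 2 in 3. The highest was that of number 1 in 6 members, numbers 3 and 5 in 5 each and numbers 2, 4 and 6 in 4 each. The rule did not use which number was high or low, but it left out genes that set numbers 2 and 6 apart, which bears on these counts. Among the 2804 genes with close libraries, the lowest number was 2, 3 or 6 in 20.1% to 20.5% of genes each and 4 or 5 in 10.98% and 10.8%. Number 5 was the deepest, with 3172663 and 2430038 reads, and number 3 the shallowest, with 2019491 and 1624309 reads. The part of depth in these counts was not tested.

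The lowest number was the same among the Noggin libraries and among the PBS libraries in 23 of the 28 members, and the highest in 17. Both ends matched in 15 members. The rule asked for close libraries in every number and a wide range between numbers, so nothing is read from these counts.

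The reads behind the members set how precisely these levels are known. The recovered reads of a member in a library ranged from 7 to 500. Counting error alone, taken as the square root of the reads and carried to the log2 scale, gave each number mean a standard error of 0.07 to 0.20, with a median of 0.16. The SD of the 6 number means was 0.33 to 1.07, between 1.73 and 13.9 times the counting error, with a median of 2.76 times. Over all 8374 genes at 10 CPM the median was 1.58 times, and over the 2804 genes with close libraries 1.62 times. The rule asked for a range of at least 1, which sets a high SD, so nothing is read from the ratios of the members. ENSGALG00010007287 had the largest excess, 13.9 times, followed by ENSGALG00010007160 with 6.24 times and ENSGALG00010000038 with 6.00 times.

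Within numbers the members were closer than counting allows on average. The root mean square difference between the Noggin and PBS library was below the spread expected from counting reads in 20 of the 28 members, and the median ratio was 0.84. The same ratio had a median of 1.28 over the 2804 genes with close libraries and 1.62 over all 8374. The lowest ratio, 0.22, was that of ENSGALG00010007803, singled out for it, whose largest difference within a number was 0.11 at a mean of 13.8 CPM. The rule kept genes whose libraries were close in all 6 numbers, so nothing is read from this closeness. ENSGALG00010007287 was the opposite case, with differences 2.21 times the counting spread.

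**Figure D4:**
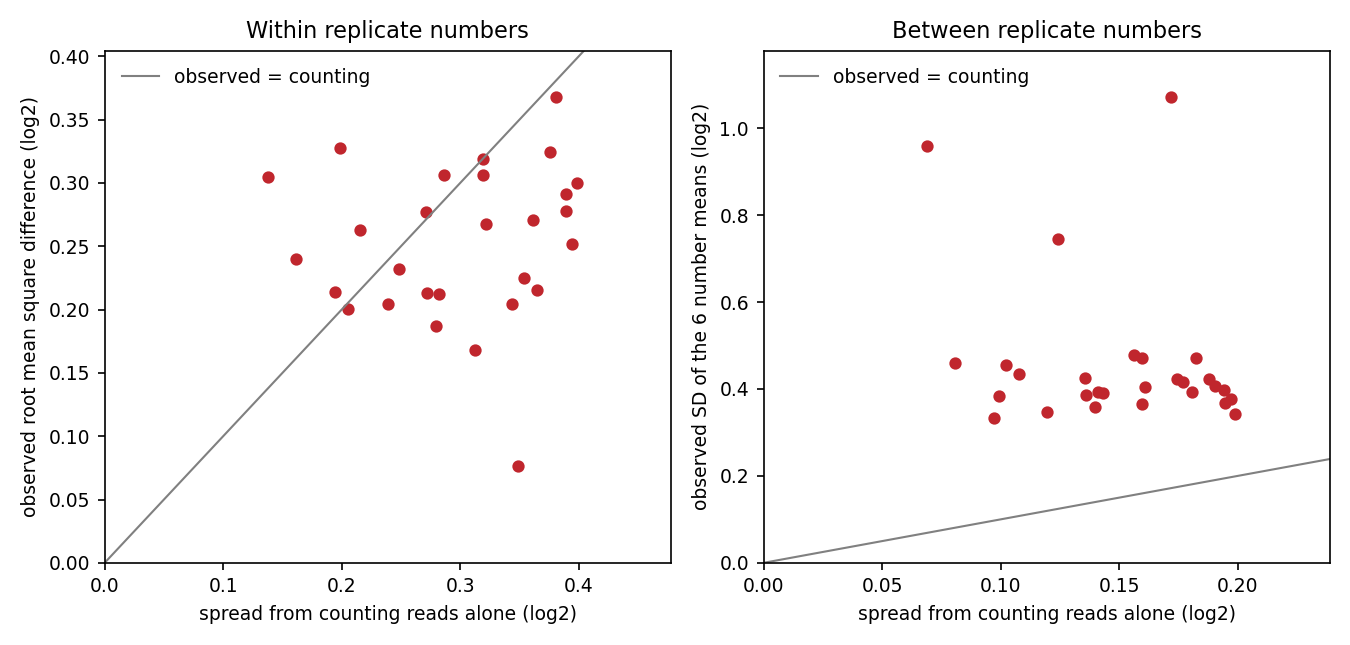
Observed spread of the 28 members against the spread that counting reads alone would give, on the log2 scale; the line marks equality. Left, root mean square difference between the libraries of a number, with 20 members below the line. Right, SD of the 6 number means, above the line in all 28 members, from 1.73 to 13.9 times the counting error. The limits of the rule favour both positions.

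Most members lay low among the genes that averaged 10 CPM or more, which are 27.8% of the genes in the table. Their mean had a median of 18.7 CPM and ran from 10.1 to 132.5 CPM. The median was 31.7 CPM over all 8374 genes at 10 CPM or more and 63.5 CPM over the 2804 with close libraries. Between 10 and 20 CPM, 254 of 2481 genes (10.2%) had close libraries in all numbers, and 15 of the 254 (5.91%) were members. Between 20 and 50 CPM there were 11 members among 851 genes with close libraries (1.29%). From 50 to 100 CPM there was 1 among 803 (0.125%) and from 100 CPM 1 among 896 (0.112%). The 2 most abundant members were thus the only ones above 50 CPM, and 26 of the 28 lay below it. The median range of the genes with close libraries fell over the same bins, from 0.62 to 0.22 on the log2 scale.

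A test of the replicate number was fitted across all genes to give the background. It was a moderated F test by limma on log2(CPM + 1) with the bead in the model, adjusted by the Benjamini-Hochberg method over 10574 genes. Of these, 101 passed an adjusted p of 0.05, which is 0.955%. Among the members 6 of 28 passed, and nothing is read from this count because the rule used the same contrast. The 6 were ENSGALG00010007160, ENSGALG00010007287, ENSGALG00010000038, ENSGALG00010012957, ENSGALG00010002633 and ENSGALG00010002461. The other 22 members did not pass, so the label of genes that differ between numbers rests for them on the size of the range alone. Without the 2 libraries numbered 6, 212 of 10574 genes (2%) passed and 8 members among them. The 2 added were ENSGALG00010004334 and ENSGALG00010017998. Leaving out 1 library of numbers 1 to 5 left 3 to 5 members past the threshold, with 65 to 101 of all 10574 genes. Leaving out either library numbered 6 gave 10 members, with 560 (without Noggin 6) and 541 (without PBS 6) of all genes. Nothing is read from these member counts either. ENSGALG00010007160, ENSGALG00010007287 and ENSGALG00010000038 passed in all 23 fits of this test, and ENSGALG00010002461 in 22 of them.

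The members were a small part of the genes that this test called. Of the 101, 57 set numbers 2 and 6 apart from the others and 6 were members. The remaining 38 comprised 33 genes with a within-number difference above 0.5 and 5 genes with close libraries and a range below 1.

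No member passed a test of Noggin against PBS fitted across all genes without the replicate number, and both limits of the rule favour that. The limit of 0.5 keeps the bead difference small, and the range of at least 1 widens the spread within each bead group. As labelled, 13 of 10574 genes (0.123%) passed by limma, and 0 of the 28 members did. At an unadjusted limma p below 0.05 there were 1464 of the 10574 genes (13.8%) and 0 members. By limma-voom 16 genes and 0 members passed. In numbers 1 to 5, 1130 genes (10.7%) passed by limma and 1154 by limma-voom, and 0 members passed by either. At an unadjusted limma p below 0.05 there were 2397 genes (22.7%) and again 0 members. With the replicate number as a block, 1498 of 10574 genes passed by limma in numbers 1 to 5, and 1 member, ENSGALG00010007287, was among them. The rule bounded the size of these differences, so nothing is read from the counts of 0 or from this call. Averaged over the 6 numbers, the Noggin minus PBS difference of the members lay between -0.22 and 0.23 on the log2 scale, with a median size of 0.08. Over the 2804 genes with close libraries the median size was 0.07, and over all 8374 it was 0.14.

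The sign of the difference, which the rule left free, showed no common direction. The Noggin library was the higher in 14 of 28 members (50%) in numbers 1 and 2 and 11 (39.3%) in number 3. It was the higher in 13 (46.4%) in numbers 4 and 5, and 16 (57.1%) in number 6, whose labels are in doubt. Over the 2804 genes with close libraries the shares were 49.0%, 60.2%, 51.6%, 53.8%, 57.9% and 48.4% in numbers 1 to 6. The mean difference was above 0 in 12 of the 28, with all numbers and also with numbers 1 to 5. In 0 members did the sign agree in all 6 numbers, against 5.71% of the genes with close libraries. Within numbers 1 to 5 it agreed in 3 members (10.7%), of which 1 was higher and 2 lower with Noggin, against 16.4% of the genes with close libraries and 23.3% of all 8374. ENSGALG00010007287 was among those lower with Noggin. With so few members these shares were not compared by a test.

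**Figure D5:**
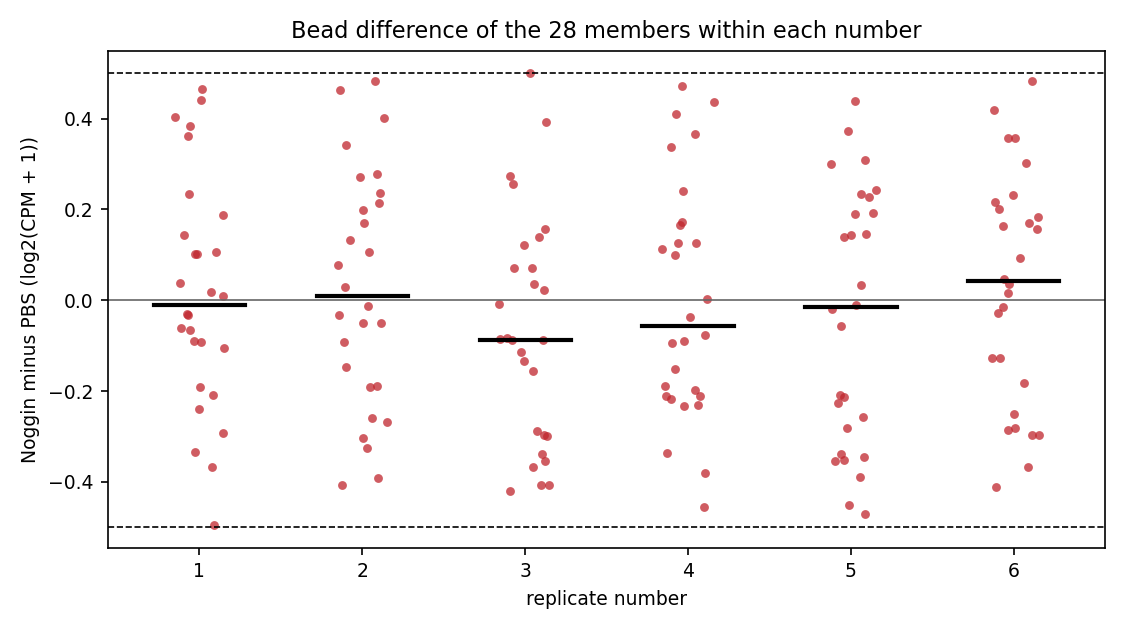
Noggin minus PBS difference of each member within each replicate number on the log2(CPM + 1) scale (points, spread sideways for visibility); bars are medians and dashed lines the limits of ±0.5 set by the rule. Points lie on both sides of 0 in every number, with medians between -0.09 and 0.04.

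To see how far a difference between numbers recurs in libraries not used to find it, genes averaging 10 CPM or more over all 12 libraries were chosen by the range of a single bead group. Over the 6 Noggin libraries 1613 of 8374 genes spanned at least 1, 26 of them members. In the 6 PBS libraries 894 of the 1613 (55.4%) also spanned at least 1, against 25.6% of all 8374 genes. A wide range in the Noggin libraries thus went with a wide range in the PBS libraries, but these shares are not matched for level. Number means spanned at least 1 in 13.4% of genes at 10 to 20 CPM and in 2.47% of genes from 100 CPM. The part of level in the shares given here and below was not tested. The order of the numbers was shared little: the highest number was the same in both beads in 17.2% of the 1613 and the lowest in 19.2%, against 17.3% and 17.8% of all genes. Chosen from the PBS libraries, 2140 genes spanned at least 1, and 41.8% of them did so in the Noggin libraries, against 19.3% of all genes. Their highest number was shared in 17.4% and their lowest in 18.5%. Noggin and PBS libraries numbered 6 enter these values with the doubt given above.

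Without number 6, a choice made after the data were seen, 928 genes spanned at least 1 over the 5 Noggin libraries, and 19 of them were members. In the 5 PBS libraries 403 of the 928 (43.4%) did so too, against 17.8% of all genes. The same number was highest in both beads in 28.0% of the 928 and lowest in 30.7%, against 24.9% of all genes for either. Chosen from the 5 PBS libraries instead, 1490 genes spanned at least 1, of which 27.0% did so in the Noggin libraries, against 11.1% of all genes. They shared the highest number in 27.6% and the lowest in 29.8%. With a limit of 1.5 in place of 1, 174 genes were chosen from the 5 Noggin libraries, 3 of them members, and the highest number was shared in 44.3% and the lowest in 35.6%. From the 5 PBS libraries that limit chose 342 genes, with 33.3% and 32.5%. Genes that set numbers 2 and 6 apart, which the rule leaves out of the members, were 27 of the 174 (15.5%) and 36 of the 342 (10.5%). At the limit of 1 they were 74 of the 928 (7.97%) and 92 of the 1490 (6.17%). Without number 6, such genes have number 2 at the same end in both beads, which raises the shared percentages. Their part was not taken out. With number 6 kept, a limit of 1.5 gave 17.3% and 15.99% for the 394 genes chosen from Noggin, and 17.01% and 15.99% for the 588 chosen from PBS. These shares were not tested. Most genes with a wide range within a bead group did not have the same highest number in both beads.

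The limit of 0.5 also left out genes with wider ranges than most members. Of the genes at 10 CPM, 61 had a range of at least 2, and 2 of these were members. Another 26 set numbers 2 and 6 apart, and 33 did not pass the limit within numbers. Of the 33, 16 kept the 2 libraries of each number together on 1 side of the largest gap between libraries, as both of the members with such a range did. These 16 had ranges of 2.01 to 4.71 and largest within-number differences of 0.52 to 1.73, with lowest libraries between 0.315 and 61.3 CPM. Among the 16, 4 were low in numbers 1 and 5, 3 in number 1 alone, as in ENSGALG00010007160, and 2 in number 4 alone, as in ENSGALG00010004334. A further 1 was low in numbers 1 and 6, the division seen in ENSGALG00010007287. These genes were found after the values were seen and are counted here to show where the members end.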

How the data were processed

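A single table with 30108 genes and 12 libraries was used, with no column left out. Per the labels' protocols, 180 ng of total RNA went into each library by Lasy-Seq (version 1.1), a multiplexed method that reads transcript ends. fastp 0.21.0, BWA 0.7.17-r1188 and Salmon appear in the submitters' processing notes. A genome build and annotation release were not given in the sources used here. The deposited values were read as the natural log of (CPM + 1), since undoing that log gave columns that each sum to 1000000. Every nonzero CPM (100% of them) was a whole number of reads to within 0.001 read, which gave the reads per gene.

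Members were chosen on the deposited values converted to log2(CPM + 1), without rescaling. For the tests across genes, TMM factors (trimmed means of M-values, trimming 30% of log ratios and 5% of levels) of 0.981 to 1.03 rescaled the CPM. Genes with at least 4.23 CPM (10 reads at the median depth) in 6 libraries and 15 reads in total were kept. limma 3.58.1 in R 4.3.3 was used with a mean-variance trend, the robust option and a pseudocount of 1, and Benjamini-Hochberg adjusted p-values were held to 0.05. The steps were tested on simulated data. On the recovered reads limma-voom called 107 genes for the replicate number, 16 for the beads as labelled and 1154 for the beads in numbers 1 to 5. The other alternatives were other limits of the rule, scalings, filters and pseudocounts, the robust option off, a replicate block and libraries left out.

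The members, lists and tests were chosen with earlier results of these data known. Named members are the 6 with the widest range, the member with the widest gap in each of the 3 commonest divisions, and the 2 most abundant, which gave 8. Nothing in the labels says that libraries of a group came from separate embryos, and the p-values therefore reflect only the spread among the samples at hand, which may be technical. Counting errors do not cover duplicate reads.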

Additional observations from a re-analysis of the deposited data

Results flagged for a closer look

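Among the 16 groups of 6 libraries given by the 8 named members in each bead group, 5 held a library far from the other 5 by Dixon's criterion on the log2(CPM + 1) scale. Chance flags about 1 in 20 groups, but the members were chosen for wide ranges, so the number of such groups is not weighed against that rate. ENSGALG00010007160 was apart in number 1 in both groups, at 2.73 CPM with Noggin, where the others lay between 13.3 and 27.9 CPM, and at 3.25 CPM with PBS, where they lay between 17.6 and 30.0 CPM. ENSGALG00010004334 was apart in number 4 in both groups, at 9.11 CPM with Noggin against 18.7 to 20.8 CPM and at 8.27 CPM with PBS against 17.3 to 25.1 CPM. ENSGALG00010015466 was apart in number 6 in the PBS group only, at 5.61 CPM against 11.5 to 16.6 CPM.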

How the results depend on the processing

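The number of members depended on the limits of the rule more than on the scaling. In place of 28 members there were 12 with a limit of 0.4 within numbers and 60 with 0.6, 94 with a range of at least 0.8 and 8 with at least 1.2, 13 with a mean of at least 20 CPM and 35 with at least 5 CPM, and 51 when genes that set numbers 2 and 6 apart were kept. TMM scaling gave 29 members, of which 24 were among the 28. A pseudocount of 0.5 gave 28 (26 shared) and of 4 gave 21 (10 shared). Leaving out both libraries of a number gave 18 members (without number 6) to 36 (without number 3), with 14 to 22 of the 28 among them. Without number 2 or 6 the step that leaves out genes acts on the remaining one of them alone. For the 8 named members, 8 of 48 values of the range fell below 1 with a number left out. A number that is neither highest nor lowest cannot change the range, so nothing is read from the unchanged values. ENSGALG00010007160 fell to 0.82 without number 1, ENSGALG00010015466 to 0.51 without number 6 and ENSGALG00010017495 to 0.50 without number 3. Without number 4, ENSGALG00010012957 fell to 0.56 and ENSGALG00010004334 to 0.32. ENSGALG00010002461 fell to 0.93 without number 6. ENSGALG00010007287 and ENSGALG00010000038 stayed at 1.87 and 1.24 or more whichever number was left out. A 2-means division equalled the largest gap in 22 of 28 members.

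The replicate number test called 101 genes, 177 without the low-count filter, 65 with the bead left out of the model, 212 without both libraries of number 6, and 65 (without PBS 2) to 560 (without Noggin 6) with 1 library left out (541 without PBS 6). The cause of these shifts was not tested. The bead test called 13 genes as labelled, 29 without the low-count filter, 8 among genes averaging 10 CPM or more, 32 with a pseudocount of 4, and 0 with the robust option off by limma (1486 at an unadjusted p below 0.05; 16 by limma-voom in the fit as labelled). With 1 library left out it called 0 (any of numbers 1 to 5) to 669 genes (without PBS 6). In numbers 1 to 5 it called 1130 genes, and 930 to 1177 under the alternatives other than the block. A pair of alternatives were chosen after seeing the data, both with numbers 1 to 5 only: the share of genes chosen from the Noggin libraries that recurred in PBS was 43.4% instead of 55.4% (52.0% with a limit of 1.5), and 12 members were higher with Noggin as before.

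The main test of the beads did not take replicate numbers as pairs. The rule, by contrast, compared the 2 libraries of each number, and the replicate number test fitted the number. Deviations from the group means were correlated over 8153 genes at 10 CPM, without the members and the genes that set numbers 2 and 6 apart. Within a number r was 0.0677 to 0.185 for numbers 1 to 5 and -0.371 for number 6, against up to 0.179 between numbers. It exceeded the highest r with another number in number 1 (0.185 against 0.100) and number 4 (0.124 against 0.0908). It was below that value in number 2 (0.0727 against 0.179), number 3 (0.0677 against 0.101) and number 5 (0.104 against 0.145). With the number as a replicate block, 0 genes passed as labelled by limma (1382 at an unadjusted p below 0.05) and 0 members, and 1498 genes passed in numbers 1 to 5. There 1 member passed, ENSGALG00010007287, at -0.28 ± 0.08 on the log2 scale (SE, Noggin minus PBS, limma adjusted p = 0.0139), lower with Noggin in 5 of 5 numbers. The rule bounded these same differences within numbers, so nothing is read from this p. Depth limits the precision of the members: 26 of the 28 lay below 50 CPM, and counting error gave the number means of the 28 a standard error of 0.07 to 0.20 on the log2 scale.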
